A study of Mus musculus with 6 samples.

Results

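The genes for the proteins of the cytosolic ribosome were examined in neonatal mouse cardiomyocytes (CMs) that overexpressed SRF. Members were taken by symbol: every Rpl or Rps gene with a number and, where present, a trailing a, l, x or y, together with Rplp0, Rplp1, Rplp2 and Rpsa. This gave 82 of the 23337 genes in the deposited count table, of which 46 encode proteins of the large subunit and 31 proteins of the small subunit. The other 5 are paralogs (Rpl3l, Rpl10l, Rpl36al, Rpl39l and Rps27l). The S6 kinase genes, the genes with a -ps ending, and Rpl22l1, Rpl7l1, Rps19bp1 and Rps4y2 fell outside the rule.

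Wildtype mice received AAV9-cTNT-SRF-2A-GFP (SRF-OE) or AAV9-cTNT-GFP (GFP) at postnatal day 1 (P1), at 5e8 viral genomes per g, and GFP-positive CMs were sorted at P14 for polyA RNA-seq. The cardiac troponin T promoter (cTNT) drives both transgenes in CMs, SRF is a transcription factor of muscle and cytoskeletal genes, and both groups carry virus and GFP. The labels name 3 libraries a group. Counts could be used for 2 SRF-OE libraries (replicates 2 and 3) and 3 GFP libraries, because gene lengths in bp stand under the name of SRF-OE replicate 1. Libraries are named as in the header of the table. If those names stood a column too far to the left, the names, the groups and n would all differ from those given here, the library labelled GFP1 would be an SRF-OE library, and the table cannot settle this. Nothing in the labels ties libraries to animals, so that p-values measure the spread between libraries, which may be technical.

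Total counts were 14137433 to 23159631 per library. Srf itself was at 360 and 748 CPM (counts scaled to 1000000 per library) in SRF-OE and at 67.3 and 85.1 CPM in GFP 2 and GFP 3, but at 338 CPM in the library labelled GFP1. That library stands apart from its group in the targeted gene, so the main comparisons are given over the 5 libraries as labelled and again over the 4 libraries without it. Some single genes are given over the 5 libraries only. With 5 libraries the log2 fold change of Srf was 1.76 (SE 0.71, edgeR adjusted p = 0.36). With 4 libraries it was 2.87 (SE 0.37, adjusted p = 0.044). Defining CM markers were abundant in every library, at 94278 to 155516 CPM summed over 10 genes, against 14.4 to 46.4 CPM for 10 leukocyte markers.

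A ribosome has a small subunit that reads the mRNA and a large subunit that joins amino acids. Each holds ribosomal RNA together with its proteins, most of them in single copies. The genes for these proteins lie scattered over the genome but are expressed together. Their mRNAs begin with a run of pyrimidines, the terminal oligopyrimidine (TOP) motif, through which mTORC1 and LARP1 control their translation. In heart and skeletal muscle Rpl3l, a paralog of Rpl3, encodes an alternative form of this large subunit protein that accumulates after birth.

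The members occupied a larger share of the counts in both SRF-OE libraries than in GFP 2 and GFP 3, and the library labelled GFP1 lay with SRF-OE. Their summed counts were 0.600% of all counts in SRF-OE 2 and 0.662% in SRF-OE 3. In the GFP group they were 0.606% in GFP 1, 0.456% in GFP 2 and 0.457% in GFP 3. GFP 1 thus fell between the SRF-OE libraries, and the groups as labelled overlapped. The means were 0.631% ± 0.0441 (SD, n = 2) and 0.506% ± 0.0864 (SD, n = 3), and an exact two-sided permutation test over libraries gave p = 0.3, where this design allows 0.1 at the smallest. Without GFP 1 the groups did not overlap and the SRF-OE mean was 1.38 times the GFP mean, with an exact permutation p of 0.33, the smallest that 2 against 2 libraries allow.

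The subunits differed little in this respect, apart from the place of GFP 1. Large subunit genes held 0.325% and 0.362% of the counts in SRF-OE and 0.327%, 0.248% and 0.249% in GFP, with GFP 1 between the SRF-OE libraries. Small subunit genes held 0.252% and 0.276% in SRF-OE and 0.252%, 0.189% and 0.187% in GFP, where GFP 1 lay just under both SRF-OE libraries. The ratio of large to small subunit counts stayed between 1.29 and 1.33 in all 5 libraries. When the 100 most abundant other genes were taken out of the denominator the shares were 0.905% and 0.971% in SRF-OE and 0.920%, 0.714% and 0.737% in GFP, with the same order of groups. Without GFP 1 the SRF-OE mean was then 1.29 times the GFP mean, against 1.38 over all counts, so the size of this ratio depended on the denominator.

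**Figure D1:**
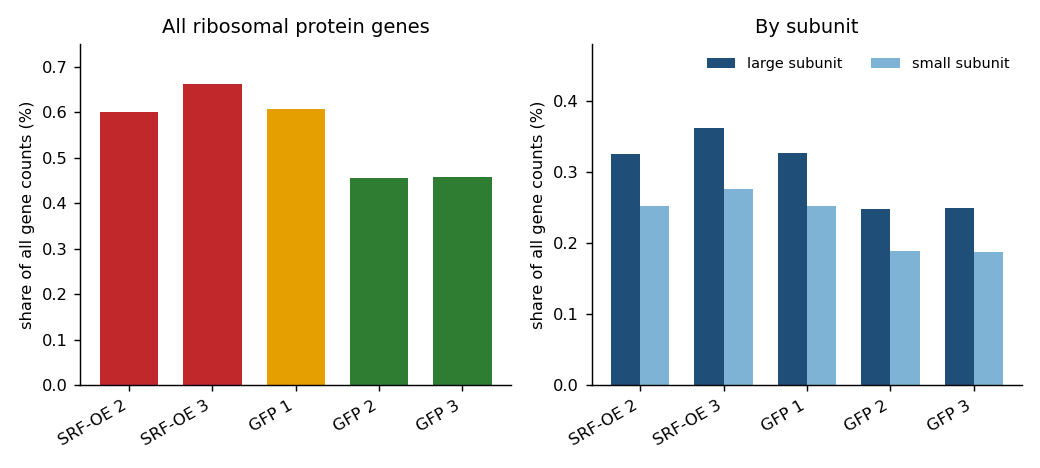
Share of all gene counts (%, y axis) on the 82 ribosomal protein genes in each library (left), and on the 46 large and 31 small subunit genes (right). Bars are single libraries, with SRF-OE in red, GFP 2 and GFP 3 in green and the library labelled GFP1 in orange. GFP 1 (0.606%) lies between SRF-OE 2 (0.600%) and SRF-OE 3 (0.662%), and the other GFP libraries lie at 0.456% and 0.457%.

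Marker levels also differed across the same libraries. CM markers summed to 105298 and 94278 CPM in SRF-OE and to 107624, 135126 and 155516 CPM in GFP, so that GFP 1 was again next to SRF-OE. The 15 endothelial markers summed to 1152 and 458 CPM in SRF-OE and to 901, 486 and 464 CPM in GFP. The 10 fibroblast markers summed to 926 and 462 CPM in SRF-OE and 500, 393 and 334 CPM in GFP, and the 8 smooth muscle and pericyte markers to 366 and 413 CPM against 358, 146 and 187 CPM. No marker of these 4 lists was at 0 in every library. The 10 leukocyte markers summed to 46.4 and 16.4 CPM in SRF-OE and 37.2, 17.4 and 14.4 CPM in GFP. Of the erythroid list, 4 of 5 genes were in the table, 2 of them at 0 in every library, and they summed to 5.33 to 6.65 CPM in SRF-OE and 0.523 to 3.47 CPM in GFP. The part of these cells in the ribosomal protein values was not tested, and in bulk RNA fewer cells of a type and less RNA per cell cannot be told apart.

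Levels differed widely among the members. Reads per gene were divided by length to give CPM per kilobase (kb), the scale on which levels of single genes are compared here. The sums over marker lists and over subunits given above were not divided by length. The 77 members tested had a median of 80.2 CPM per kb, with the middle of the distribution between 52.9 and 139 CPM per kb, against a median of 5.75 CPM per kb for all genes tested. Among the highest mean levels were those of Rps29 at 326 CPM per kb (251 to 436 over libraries), Rps14 at 260 (232 to 276), Rps27l at 254 (212 to 300) and Rplp1 at 247 (190 to 299). The ranges of these 4 overlapped across libraries. Within every library Rps29 lay above Rps27l and Rplp1, but in GFP 3 it lay below Rps14 (251 against 254 CPM per kb). The order among Rps14, Rps27l and Rplp1 changed between libraries and was not resolved. Rps29, Rps14 and Rps27l belong to the small subunit, and Rplp1 encodes a protein of the stalk that recruits elongation factors.

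Other members had few or no counts in this table or were low per length, among them genes for proteins of every ribosome. Rpl26 and the paralog Rpl10l were listed at 0 counts in all 5 libraries. Rps27 had 8 and 7 counts in SRF-OE and 6, 6 and 1 in GFP, and its mean was 0.490 CPM per kb. Its paralog Rps27l held 99.7% to 99.9% of the pair per length in this table. Rpl30 had 6 and 19 counts in SRF-OE and 6, 8 and 5 in GFP (0.711 CPM per kb). Rpl34 had 24 to 61 counts and reached 3.27 CPM per kb. Rps15a had 475 to 1108 counts and was low only per length, at 8.05 CPM per kb over a listed length of 5134 bp. Rpl39l, a paralog known from germ cells, was at 0.229 CPM per kb and was the lowest of the 80 members with counts in every library. The near-zero counts of Rpl26, Rpl30 and Rps27 and the low counts of Rpl34 may not be levels, since the counting settings are not given in the sources used here. The share of Rps27l is uncertain for the same reason.

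The order of levels was much alike in every library. Spearman's rho over the 77 members ranged from 0.94 to 0.99 among the 10 pairs of libraries, which share gene lengths and the counting method. Many members resemble processed pseudogenes, so the share of 50-base windows of each transcript found in no other annotated gene was computed. This share was 50% or less for 41 of 82 members, 100% for Rpl3l and Rpl39l, 14.4% for Rpl3 and 9.9% for Rps12. Of the members with few or no counts, Rpl26 had 28.7%, Rpl30 52.2%, Rps27 36.9% and Rpl34 62.1%. The lowest share, 6.7%, was that of Rpl9, which had 1065 to 2297 counts. Across the 77 members the share of windows had a rho of -0.05 with the mean level per kb. How reads with several matches were counted is not given in the sources used here, so values of genes with near-identical copies are uncertain. Of the 82 members, 10 share exon bases with a neighbouring gene, among them Rpl23a (55.4% of its exon bases, shared with Tlcd1), and the library kit does not mark strand. Rpl26, Rpl30, Rps27 and Rpl34 share 0 exon bases. The cause of their low counts was not tested.

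Gene by gene, no member passed the threshold of an adjusted p of 0.05 over the 5 libraries. Of 82 members, 77 had enough counts for edgeR (44 large subunit, 30 small subunit and 3 paralogs). None was called higher and none lower, as were 0.0% of all 13754 genes tested in either direction. At an unadjusted p under 0.05, 4 members were higher (among them Rpl7a and Rps19; background 6.35% of all genes) and 1 was lower (Rpl3l; background 7.59%). DESeq2 called 0 members over the same libraries and gave few of them an adjusted p.

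The signs of the fold changes were less even than the calls. Over 5 libraries 67 members had a positive log2 fold change and 10 a negative one, where 53.3% of all genes were positive, and the median was 0.16 against 0.03 for all genes. Leaving out 1 library at a time moved this median to 0.07 without SRF-OE 3, 0.09 without GFP 2, 0.13 without GFP 3, 0.23 without SRF-OE 2 and 0.28 without GFP 1. Both SRF-OE libraries lay above every GFP library in 9 members (background 16.1%) and below every GFP library in 2, Rpl3l and Rps2 (background 17.3%). The count of separated members was thus near or under the background in both directions. Members share libraries and are no replicates of each other, so these counts describe 5 libraries only.

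Without the library labelled GFP1, 1 member was called. Rpl38 was higher in SRF-OE with an edgeR adjusted p of 0.05 after rounding, just under the threshold, where 1.98% of 13397 genes were called higher and 0.97% lower. At an unadjusted p under 0.05, 29 members were higher (background 14.4%) and 0 lower (background 14.0%). Both SRF-OE libraries lay above GFP 2 and GFP 3 in 55 members (background 30.8%) and below them in 3, Rpl3, Rpl3l and Rps2 (background 30.2%). A positive log2 fold change was found for 70 of 77 members (53.2% of all genes), and the median was 0.28, against 0.04 for all genes. DESeq2 on these 4 libraries called 9 members higher and 0 lower (Rpl12, Rpl17, Rpl37, Rpl38, Rps12, Rps15, Rps24, Rps26 and Rps28), where it called 6.31% of the 13521 genes with an adjusted p higher and 6.16% lower. The median was 0.24 for 44 large subunit genes and 0.34 for 30 small subunit genes.

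Read library by library, GFP 1 carried the difference between the fits. It lay above both GFP 2 and GFP 3 in 66 of 77 members, as in 40.5% of all genes. It lay above both SRF-OE libraries in 27 members, as did 28.4% of all genes. Relative to each gene's own mean over the 5 libraries, the median member was 0.02 higher in SRF-OE 2, 0.18 higher in SRF-OE 3 and 0.16 higher in GFP 1 on the log2 scale. It was at -0.20 in GFP 2 and -0.13 in GFP 3. SRF-OE 2 was thus the SRF-OE library nearer to the mean, and GFP 1 was close to SRF-OE 3.

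**Figure D2:**
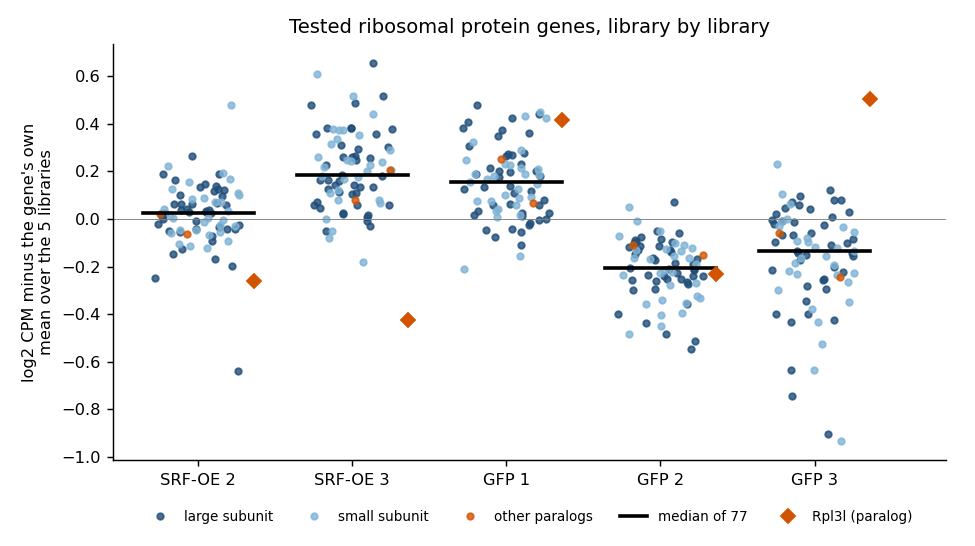
Deviation of each of the 77 tested members from its own mean over the 5 libraries (y axis, log2 CPM), one column of points per library, coloured by subunit, with a black bar at the median and Rpl3l as a diamond. Medians are 0.02 and 0.18 in SRF-OE and 0.16, -0.20 and -0.13 in GFP 1, GFP 2 and GFP 3, while Rpl3l lies at -0.26 and -0.43 in SRF-OE and at 0.41, -0.23 and 0.50 in GFP.

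The members with the highest log2 fold changes over 5 libraries came from both subunits. Rps12, a small subunit protein, was at 16.2 and 15.7 CPM in SRF-OE and at 14.1, 9.36 and 5.76 CPM in GFP, so that the groups did not overlap. Its log2 fold change was 0.70 (SE 0.35, edgeR adjusted p = 0.40) and, without GFP 1, 1.07 (SE 0.27, adjusted p = 0.074). Only 9.9% of its windows are its own.

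Rpl38, a large subunit protein known for its part in the translation of Hox mRNAs, was at 63.6 and 88.2 CPM in SRF-OE and at 75.9, 38.1 and 33.2 CPM in GFP. GFP 1 lay between the SRF-OE libraries. The log2 fold change was 0.63 (SE 0.36, edgeR adjusted p = 0.44) with GFP 1 and 1.10 (SE 0.20) without it, the member called above. With upper quartile factors on the 4 libraries it was not called (1.15, SE 0.18, adjusted p = 0.052).

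Rpl12 of the stalk base was at 36.4 and 47.3 CPM in SRF-OE and at 37.3, 28.3 and 21 CPM in GFP, a log2 fold change of 0.53 (SE 0.25) and, without GFP 1, 0.77 (SE 0.21). Rps16 was at 32.9 and 36.5 CPM in SRF-OE and at 33.0, 24.6 and 17.9 CPM in GFP, with 0.46 (SE 0.25) and 0.71 (SE 0.19). Rpl37 was at 43.4 and 55.5 CPM in SRF-OE and at 55.0, 34.1 and 20.8 CPM in GFP, with 0.43 (SE 0.37) and 0.85 (SE 0.26). In all 3 genes GFP 3 was the lowest library and GFP 1 overlapped SRF-OE, and neither of these edgeR fits gave an adjusted p under 0.083.

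The lowest log2 fold changes were those of Rpl3l and, after it, Rps2. Rps2, a small subunit protein near the mRNA entry, was at 148 and 140 CPM in SRF-OE and at 160, 165 and 187 CPM in GFP. Its SRF-OE libraries lay under every GFP library, with a log2 fold change of -0.24 (SE 0.12, edgeR adjusted p = 0.40) and -0.28 (SE 0.12, adjusted p = 0.19) without GFP 1. Rpl23a had -0.21 (SE 0.28) and was at 30.2 CPM in SRF-OE 2 but at 45.5 to 58.8 CPM in the other libraries, so that 1 library set its sign (0.19 without SRF-OE 2). Rpl29 had -0.17 (SE 0.21) and Rpl27a -0.14 (SE 0.16), both within their error of 0.

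The start sites of these genes are shown because ribosomal protein mRNAs are known for the pyrimidines at their first bases, and because SRF acts through promoters. The windows below are RefSeq sequence of GRCm38.p6 on the strand of the gene, 30 bases from 10 before to 20 from the annotated start on, with the longest unbroken run of C and T in capitals. They are the 5 members named for the highest fold changes, then Rpl27a, Rps2 and both annotated starts of Rpl3l from the lowest.
Rps12 (chr10:23787190-23787219, minus strand): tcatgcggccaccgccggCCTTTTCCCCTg
Rpl38 (chr11:114668570-114668599, plus strand): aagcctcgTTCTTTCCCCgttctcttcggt
Rpl12 (chr2:32961702-32961731, plus strand): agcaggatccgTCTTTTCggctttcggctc
Rps16 (chr7:28350679-28350708, plus strand): TTCTgtcgtgacgtagcactcaatgcgcct
Rpl37 (chr15:5116603-5116632, plus strand): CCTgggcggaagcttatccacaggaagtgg
Rpl27a (chr7:109519185-109519214, plus strand): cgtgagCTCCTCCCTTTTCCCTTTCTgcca
Rps2 (chr17:24720053-24720082, plus strand): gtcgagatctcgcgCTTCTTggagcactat
Rpl3l, upstream start (chr17:24727816-24727845, plus strand): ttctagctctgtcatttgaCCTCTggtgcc
Rpl3l, downstream start (chr17:24732675-24732704, plus strand): caacagctacagtgCCCCaaatgtcctgaa
The longest pyrimidine run in a window was 20 bases in Rpl27a, 11 in Rps12, 10 in Rpl38 and 7 in Rpl12, but 4 in Rps16 and 3 in Rpl37. In these windows runs were thus long and short among members with high fold changes, and Rpl3l had 5 and 4. The RefSeq starts are not always the gene starts of the GENCODE M21 annotation. There Rps2 begins at 24718116, well before its window, and Rpl37 at 5116645, after the end of its window. How the run lengths depend on the start taken was not tested.

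RefSeq promoters matched 62 of 82 members, with 74 starts in all. A run of 6 or more pyrimidines stood in the 30-base window of 39 of the 74 (52.7%), against 28.7% of all 32851 promoters and 28.1% of the 12470 promoters of genes tested. Motifs were searched on both strands over the 300 bases from 250 before to 50 after a start, as present or absent in each promoter. TTCCGG, the core letters of ETS factor sites, was found in 47.3% of the member promoters, in 14.9% of all and in 25.2% of those of genes tested. AAGATGG, a match to the YY1 site, was found in 14.9%, 6.34% and 6.58%. TATAAA was found in 8.11% of the member promoters, below the 13.6% of all promoters but above the 7.45% of those of genes tested. The CArG box, the site that SRF binds, was found in 1 member promoter, that of Rpl10a (1.35%), in 1.63% of all promoters and in 1.36% of those of genes tested. Rpl10a was at 19.7 and 20.6 CPM in SRF-OE and at 20.2, 12.4 and 16.2 CPM in GFP, so the groups overlapped through GFP 1 only. Its log2 fold change was 0.31 (SE 0.23, edgeR adjusted p = 0.53) and, without GFP 1, 0.51 (SE 0.19, adjusted p = 0.16). The motif counts are matches of letters only and say nothing about binding.

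**Figure D3:**
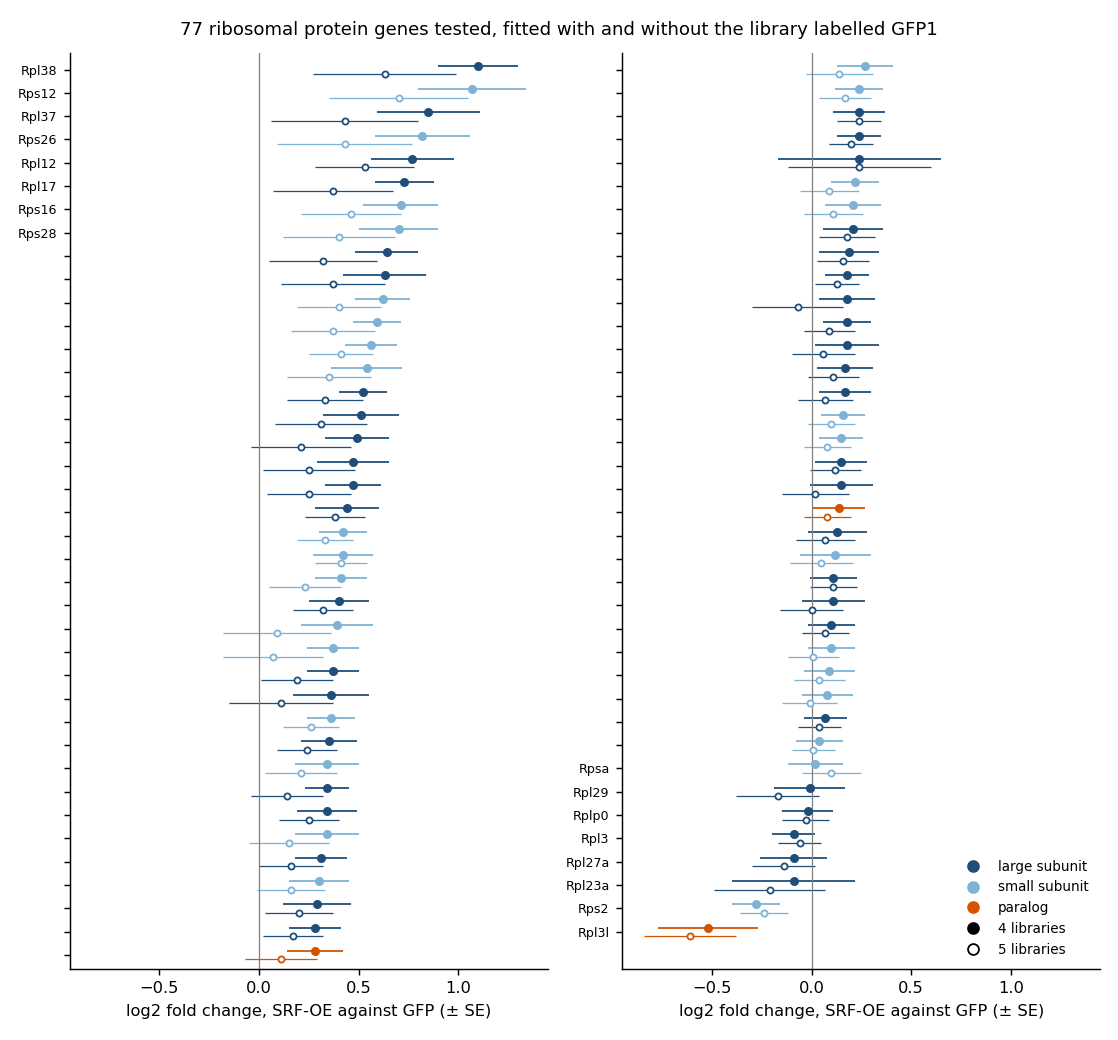
Log2 fold change of SRF-OE against GFP with its SE (x axis) for the 77 tested members, ordered by the fit of 4 libraries, with filled points for 4 libraries and open points for 5 libraries, coloured by subunit, with names for the 8 highest and 8 lowest. Rpl38 (1.10) and Rps12 (1.07) are at the top, Rpl3l (-0.52) is at the bottom, and 70 of the 77 filled points lie above 0.

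The stalk proteins and Rpsa did not move as a unit. Rplp0, the stalk's anchor, was at 248 and 276 CPM in SRF-OE and at 267, 256 and 278 CPM in GFP, a log2 fold change of -0.03 (SE 0.12). Rplp1 was at 124 and 140 CPM in SRF-OE and at 131, 88.9 and 95.6 CPM in GFP, with 0.33 (SE 0.19) and, without GFP 1, 0.52 (SE 0.12, edgeR adjusted p = 0.067). Its dimer partner Rplp2 was at 100 and 106 CPM in SRF-OE and at 116, 80.2 and 83.8 CPM in GFP, with 0.14 (SE 0.18) and 0.34 (SE 0.11). GFP 1 was the highest library for Rplp2 and lay inside the SRF-OE range for Rplp1. Rpsa, the laminin receptor and small subunit protein, was at 124 and 102 CPM in SRF-OE and at 93.5, 108 and 117 CPM in GFP, with 0.10 (SE 0.15).

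Rps29 and Rps14, of the most abundant members, were not separated between the groups as labelled. Rps29 was at 122 and 140 CPM in SRF-OE and at 170, 106 and 97.7 CPM in GFP, and Rps14 at 159 and 162 against 165, 138 and 152 CPM. GFP 1 was the highest library for both. Over 5 libraries their log2 fold changes were 0.07 (SE 0.25) and 0.08 (SE 0.12). Without GFP 1 both SRF-OE libraries lay above GFP 2 and GFP 3 in both genes. The log2 fold changes were then 0.37 (SE 0.13, edgeR adjusted p = 0.12) and 0.15 (SE 0.11, adjusted p = 0.42).

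Fold changes were larger in the shorter members. The members had a median length of 706.5 bp in the table, against 2244 bp for all genes. Over 4 libraries the median log2 fold change was 0.37 for 30 tested members under 600 bp, 0.27 for 29 members of 600 to under 1000 bp and 0.17 for 18 members of 1000 bp or more. All genes of the same lengths had medians of 0.15, 0.14 and 0.03, so that the members' median was the higher in each class. The classes of all genes include the members, which were 30 of the 208 genes tested under 600 bp. Over 5 libraries the medians of the members were 0.20, 0.18 and 0.12, against 0.09, 0.08 and 0.03. Spearman's rho between length and log2 fold change over the 77 members was -0.42 with 4 libraries and -0.23 with 5. Within libraries the rho of a member's deviation with its length was -0.03 and -0.36 in SRF-OE, -0.51 in GFP 1, and 0.40 and 0.46 in GFP 2 and GFP 3. The part of length in the members' values was not tested.

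**Figure D4:**
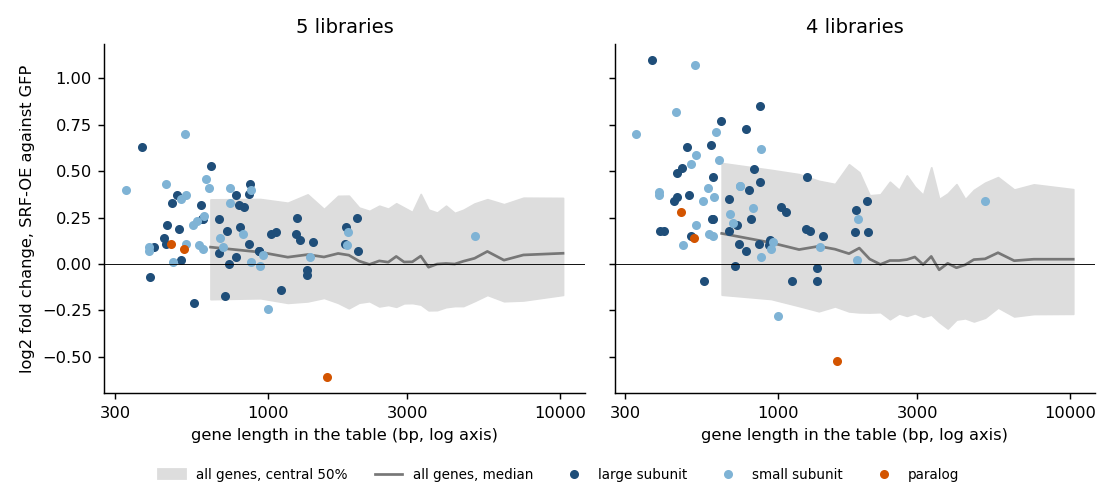
Log2 fold change of SRF-OE against GFP (y axis) against gene length in bp (x axis, log scale) over 5 libraries (left) and 4 libraries (right). Points are the 77 members by subunit, and the grey line and band are the median and central 50% of all genes tested in 25 classes of length. Members lie mostly above the line, with Rpl3l at -0.61 and -0.52 as the lowest point.

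Rpl3l, the muscle paralog, had the opposite sign to most members, without passing the threshold. Rpl3l lies on chromosome 17 from 24727820 to 24736143 (GRCm38), and was at 53.1 and 47.3 CPM in SRF-OE and at 85.1, 54.2 and 90.6 CPM in GFP. Both SRF-OE libraries lay below every GFP library, but GFP 2 was close to SRF-OE 2. The log2 fold change was -0.61 (SE 0.23, unadjusted p = 0.038, edgeR adjusted p = 0.36) and, without GFP 1, -0.52 (SE 0.25, adjusted p = 0.23). Rpl3 was at 96.1 and 94.4 CPM in SRF-OE and at 94.6, 103 and 101 CPM in GFP, with a log2 fold change of -0.06 (SE 0.11).

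Per length, Rpl3l made up 32% and 29.9% of the reads of the pair in SRF-OE and 43.4%, 31.1% and 43.4% in GFP. GFP 2 fell between the SRF-OE libraries and the groups overlapped. The means were 31.0% ± 1.47 (SD, n = 2) and 39.3% ± 7.13 (SD, n = 3), with an exact two-sided permutation p of 0.3. Without GFP 1 the GFP mean was 37.2% ± 8.72 (SD, n = 2), with an exact permutation p of 0.67, where 0.33 is the smallest possible. Unlike for the members as a whole, it was GFP 2 and not GFP 1 that lay near SRF-OE.

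The other paralogs were compared with their parent genes in the same way. Rpl36al was at 44.2 and 46.1 CPM in SRF-OE and at 45.7, 40.4 and 41.8 CPM in GFP, and held 54.9% to 67.8% of the pair with Rpl36a. Rps27l was at 112 and 135 CPM in SRF-OE and at 139, 105 and 98.5 CPM in GFP, with a log2 fold change of 0.11 (SE 0.18) and, without GFP 1, 0.28 (SE 0.14). Rpl39l held 0.273% to 0.421% of the pair with Rpl39. Outside the rule, Rpl22l1 held 55.7% to 67.2% of its pair with Rpl22, Rps4y2 44.7% to 51.3% of its pair with Rps4x, and Rpl7l1 19.2% in both SRF-OE libraries against 21.4%, 23% and 21.8% in GFP (exact permutation p = 0.1, the smallest possible). The groups as labelled overlapped in all these pairs but that of Rpl7l1, whose protein acts in ribosome assembly. For Rpl36al the overlap came from GFP 1 only: its share was 62.5% and 54.9% in SRF-OE and 58.2%, 64.9% and 67.8% in GFP. Without GFP 1 the exact permutation p for Rpl36al was 0.33, the smallest possible. For the parent genes, the log2 fold changes over 5 libraries were 0.37 (SE 0.26) for Rpl36a, -0.07 (SE 0.23) for Rpl39, 0.07 (SE 0.14) for Rpl22, 0.01 (SE 0.11) for Rps4x, 0.07 (SE 0.12) for Rpl7 and 0.32 (SE 0.15) for Rpl10. Over 4 libraries they were 0.63 (SE 0.21), 0.18 (SE 0.14), 0.17 (SE 0.13), 0.04 (SE 0.12), 0.10 (SE 0.12) and 0.40 (SE 0.15) in the same order.

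**Figure D5:**
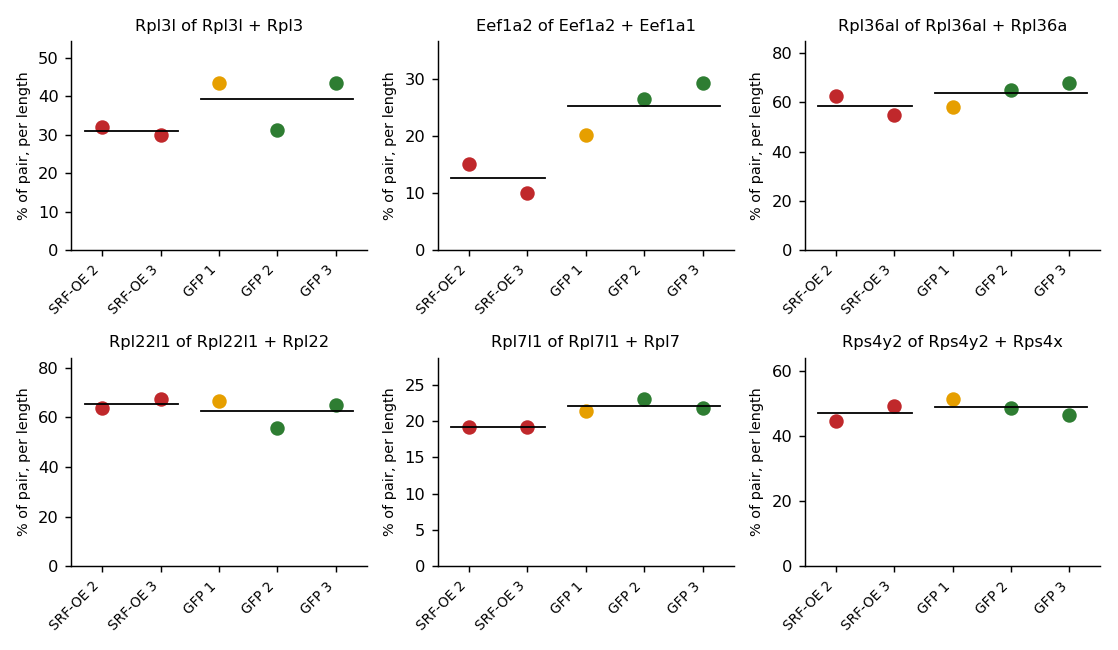
Share of a gene in the length-scaled reads of its pair (%, y axis from 0) in each library, for 5 ribosomal protein pairs and for Eef1a2 with Eef1a1. Points are single libraries and black lines the group means. Eef1a2 lies at 15.1% and 9.95% in SRF-OE and at 20.1%, 26.5% and 29.2% in GFP, whereas Rpl3l overlaps between the groups.

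Genes that work with the ribosome were examined from fixed lists. The ribosomal protein RPS30 is made by Fau as a fusion with a ubiquitin-like protein. Fau was at 44.7 and 48.5 CPM in SRF-OE and at 48.7, 37.3 and 38.7 CPM in GFP (log2 fold change 0.17, SE 0.16), and GFP 1 overlapped SRF-OE. Without GFP 1 the log2 fold change of Fau was 0.30 (SE 0.13, edgeR adjusted p = 0.2).

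Of 8 elongation factor genes, edgeR called 0 over 5 libraries, and over 4 libraries Eef1a2 fell. Eef1a2, the form of the factor that brings aminoacyl-tRNA in adult muscle and nerve, was at 91.7 and 81.8 CPM in SRF-OE and at 128, 139 and 151 CPM in GFP, below every GFP library. Its log2 fold change was -0.68 (SE 0.13, unadjusted p = 0.0015, edgeR adjusted p = 0.35) and, without GFP 1, -0.73 (SE 0.12, adjusted p = 0.049). The call was lost with upper quartile factors (-0.68, adjusted p = 0.057). Eef1a1, the general form, was at 452 and 647 CPM in SRF-OE and at 443, 337 and 320 CPM in GFP, above every GFP library, with 0.58 (SE 0.22, adjusted p = 0.36) and 0.75 (SE 0.20, adjusted p = 0.079). Eef1a1 was called by DESeq2 over 4 libraries (0.74, adjusted p = 0.0096), and Eef1a2 by edgeR with a replicate block (-0.74, adjusted p = 0.037). GFP 1 is the only library of its replicate number with counts, so under the block it adds nothing to the group difference. Eef1a2 made up 15.1% and 9.95% of this pair per length in SRF-OE and 20.1%, 26.5% and 29.2% in GFP (exact permutation p = 0.2). The median of the 8 genes was 0.00 over 5 libraries and -0.06 over 4.

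The lists of initiation factors, ribosome assembly factors and regulators of TOP mRNAs had medians near 0, unlike the members. The 27 initiation factor genes had a median log2 fold change of -0.03 over 5 libraries and 0.00 over 4, from Eif4g2 (-0.42, SE 0.19) to Eif2s2 (0.58, SE 0.31). The 34 assembly genes had -0.03 and -0.04, from Bysl (-0.34, SE 0.17) to Fbl (0.35, SE 0.26). The 16 regulators had -0.04 and 0.00, from Max (-0.72, SE 0.46) to Myc (0.52, SE 0.43). In these 3 lists edgeR called 0 genes over 5 or 4 libraries. Other settings called initiation factors only. DESeq2 over 4 libraries called Eif2s2 (adjusted p = 0.0049), Eif4g2 (adjusted p = 0.023) and Eif5b (adjusted p = 0.031). With the replicate block, where GFP 1 again adds nothing to the group difference, edgeR called Eif2s2 (adjusted p = 0.047) and Eif5b (adjusted p = 0.043).

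Of 10 other genes whose mRNAs carry a TOP motif, 6 had a positive log2 fold change over 5 libraries and 7 over 4, with medians of 0.18 and 0.24. Vim, which encodes vimentin, a filament protein of mesenchymal cells, was at 87.3 and 83.2 CPM in SRF-OE and at 59.8, 28.3 and 31.0 CPM in GFP. It was the 1 gene of this list called over 4 libraries (1.53, SE 0.13, edgeR adjusted p = 0.042), and 0 were called over 5 without the block. The replicate block, to whose group difference GFP 1 adds nothing, gave Vim an edgeR adjusted p of 0.0079. Naca, a chaperone subunit of nascent chains, had the lowest value over 5 libraries at -0.20 (SE 0.16).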

How the data were processed

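RNA-seq counts were used from GFP-positive CMs sorted at P14, 2 SRF-OE and 3 GFP libraries. The authors amplified full-length cDNA, fragmented it with a Nextera kit, and counted reads per gene. The deposited values are raw counts without normalization. The submitters' processing notes name mm10, CASAVA 1.8, STAR 2.5.3a, featureCounts and Subread 1.5.2. Settings for strand and multiply mapped reads are not given in the sources used here. The column under the name of SRF-OE replicate 1 has 0 zeros, lies within 5% of the annotated exon length for 52.3% of 20892 genes, and was used as length. No other column was left unused (0).

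Counts were fitted with edgeR 4.0.16 in R 4.3.3 (filterByExpr, TMM, glmQLFit, glmQLFTest) over all genes, without covariates, and p-values were adjusted by Benjamini-Hochberg with a threshold of 0.05. The SE is the log2 fold change divided by the square root of F. CPM are scaled by the TMM factors. Shares per library were compared by exact permutation. Deviations per library used log2 CPM with a pseudocount of 0.5. Genes were placed by GENCODE M21 (GRCm38), and promoters came from RefSeq GRCm38.p6, in which no entry was found for 20 members, among them Rpl3, Rpl17, Rpl23a, Rpl29, Rplp1, Rps14 and Rps29. The fits were run on simulated counts with known changes. Those changes were larger than the log2 fold change of any member, and no simulated library stood apart from its group. Changes of the members' size were therefore not covered.

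Members and lists were chosen with earlier results of these data known. Genes named were the Rpl3 pair and other paralog pairs, the stalk genes and Rpsa, the 5 members highest and lowest in level per length and in log2 fold change, members past the threshold, Fau, Eef1a1, Eef1a2, the highest and lowest gene of each list, and Srf. Some genes that this rule names are not reported here. Of the cell marker lists only summed levels and these extremes are given. Members named for an unadjusted p, separated groups, shared exons or a motif were picked after their values were seen. Alternatives were other scalings, other filters, DESeq2 1.42.0, a replicate block and leaving out each library. Depth was 14137433 to 23159631 counts, and the lowest tested member had 24 counts in its lowest library.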

Additional observations from a re-analysis of the deposited data

How the results depend on the processing

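The counts of calls depended on the libraries and the tool, while the direction of the members' median did not: it stayed positive, from 0.07 to 0.34, under all alternatives. Leaving out each library in turn gave 0 to 1 members called higher, with 0 to 265 of all genes called higher and 0 to 130 lower, and the library labelled GFP1 was the one whose absence gave calls. Over 5 libraries DESeq2 called 0 members, with 11 genes higher and 213 lower. Over 4 libraries DESeq2 called 9 members higher, with 853 genes higher and 833 lower. RLE size factors on 4 libraries gave 1 of 77 members higher, with 330 of 13397 genes higher and 206 lower. Upper quartile factors there gave 0 members, 88 genes higher and 9 lower, with Rpl38, Eef1a2 and Tagln no longer called. In each of these settings 0 members were called lower. The cause of these differences was not tested.

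The replicate numbers come from the titles and give 2 pairs with counts. GFP 1 is the only library of number 1 with counts, so with the block the group difference comes from the other libraries also when GFP 1 is kept. Deviations from the group means correlated at 0.372 for number 2 and -0.0597 for number 3, and at 0.202 with 4 libraries. The labels do not say what a number shares, but Xist, expressed from the inactive X chromosome of female cells, was at 147 and 88.8 CPM in the libraries of number 2 and at 0.743 and 0.71 CPM in those of number 3 (0.38 CPM in GFP 1), so that number and Xist level cannot be told apart. With the replicate block 3 of 77 members (Rps12, Rpl38 and Rpl17) were called higher, with 582 of 13754 genes higher and 432 lower. On 4 libraries 2 of 77 members (Rpl38 and Rpl17) were called higher, with 547 of 13397 genes higher and 392 lower. In both fits the share of members called higher was under that of all genes. Within the block the share of counts differed by 0.174 percentage points (0.144 within number 2 and 0.205 within number 3) and the Rpl3l share by -6.24 (0.963 and -13.4).

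Rpl3l stayed negative and uncalled in all alternatives, and so did Rpl3. Signs of small differences turned as follows on the log2 scale. Leaving out each library gave -0.22 to 1.20 for Egfl7, -0.73 to 0.81 for Erg, -0.74 to 0.81 for Kcnj8, -0.30 to 0.07 for Ptprc and, over 4 of the 5 removals, as it was not tested without GFP 1, -0.73 to 1.99 for Tyrobp. It gave -0.78 to 0.19 for Rpl23a, -0.18 to 0.54 for Rpl34, -0.20 to 0.18 for Rpl39, -0.02 to 0.14 for Rpl7 and -0.12 to 0.05 for Rplp0. It gave -0.01 to 0.34 for Rps15a, -0.04 to 0.28 for Rps27l, -0.07 to 0.37 for Rps29, -0.01 to 0.04 for Rps4x, -0.23 to 0.03 for Rps4y2 and -0.05 to 0.22 for Rpsa. Rpl39 was at 0.17 with the replicate block, 0.18 with it on 4 libraries, 0.17 with DESeq2 and with RLE factors on 4 libraries, and 0.24 with upper quartile factors there. Rps4y2 was at 0.01 with the block, DESeq2 or RLE factors on 4 libraries and at 0.07 with upper quartile factors. Rplp0 was at 0.02 with upper quartile factors and at 0.04 with them on 4 libraries, where Rpl29 was at 0.05. With 2 libraries in SRF-OE the spread of that group rests on 1 difference, and leaving out either assumes that the other varies like the GFP libraries.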

Other observations

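The marker lists, given in the report as sums, also had single genes at their extremes over the 5 libraries. In the endothelial list Egfl7 had a log2 fold change of 0.66 (SE 0.47) and Erg 0.13 (SE 0.63). In the fibroblast list Ddr2 had 1.21 (SE 0.46) and Lum 0.43 (SE 0.38), and in the smooth muscle and pericyte list Tagln had 2.30 (SE 0.54) and Kcnj8 0.12 (SE 0.59). Without GFP 1, Ddr2 (1.88, edgeR adjusted p = 0.042) and Tagln (2.92, adjusted p = 0.047) were called higher. In the CM list Ttn had 0.20 (SE 0.25) and Pln -0.66 (SE 0.29), and in the leukocyte list Tyrobp had 1.17 (SE 1.00) and Ptprc -0.12 (SE 0.41). The erythroid gene Alas2 had 2.07 (SE 0.48) at 0.238 to 1.5 CPM.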
